A study of Drosophila melanogaster with 8 samples.

Results

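Control flies kept in groups (environmental enrichment, EE) were compared with control flies kept alone (isolation, ISO) across every probe set of an Affymetrix Drosophila expression array. All 18769 probe sets left of 18952 once the Affymetrix control (AFFX) probe sets were set aside were included, and those with 1 symbol stand for 11982 genes. The EE group consisted of newly eclosed flies held for 5 days in vials of 30 with equal numbers of both sexes, and the ISO group of flies held for the same 5 days with 1 fly per vial. The study does not give the sex ratio of the ISO flies. Only EE flies were kept with the other sex, so housing cannot be told apart from mating or from a difference in sex ratio. Both groups carried UAS-mCD8-GFP, a membrane-bound green fluorescent protein, driven by OK107-GAL4, and no Tip60 transgene. There were 2 arrays for each group, named EE 1, EE 2, ISO 1 and ISO 2, all labelled as 5 days old. A further 4 arrays came from flies in which the same driver expressed dTip60E431Q, a Tip60 without its histone acetyltransferase activity. They were 2 arrays each for EE and ISO, labelled as 5 days old apart from 1 ISO array labelled as 6 days old. These 4 arrays entered the estimate of spread and are otherwise named only where a result is set beside them.

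RNA came from GFP-positive cells sorted from dissociated brains of both sexes, which the study calls Kenyon neurons. Kenyon neurons are the intrinsic cells of the mushroom body (MB), the centre of olfactory learning and memory in the fly. OK107-GAL4 is also active in the pars intercerebralis, the suboesophageal ganglion and the optic lobes, so the sort could hold other neurons. The brain lies against fat body tissue of the head, which stores nutrients, makes yolk protein and carries much of the fly's amino acid and detoxifying metabolism, and blood cells (hemocytes) circulate around both. In bulk samples, fewer cells of a type cannot be told apart from less RNA per cell.

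Values were log2 signals, and a difference is the EE mean minus the ISO mean on that scale. No detection call was used, so a probe set was marked as low signal when its mean over the 4 arrays lay under 6.47, the median of those means, which marked 9384 probe sets. A call required a fold of at least 1.3 and an adjusted p under 0.05 from limma, after Benjamini and Hochberg. The looser unadjusted threshold was p under 0.05 with the same fold. Gene lists were chosen with earlier results of these data known, so their counts beside the shares of all genes are descriptive and test nothing. The labels do not say that the arrays of a group were separate pools of flies, so p-values measure only how far these arrays differ, and that may be a technical difference. An exact permutation test of 2 arrays against 2 cannot give a two-sided p below 0.333, and no such test is reported.

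The ISO arrays differed more from each other than the EE arrays did. The SD over probe sets of the difference between the arrays of a group was 0.358 for EE and 0.479 for ISO, and it was 0.372 and 0.183 for the EE and ISO pairs of dTip60E431Q. The correlation over probe sets was 0.990 between EE 1 and EE 2, 0.982 between ISO 1 and ISO 2, and 0.992 between EE 2 and ISO 2, so ISO 2 was closer to EE 2 than to ISO 1. Heat shock genes set ISO 2 apart. Hsp68, an inducible chaperone, had 9.61 and 8.84 on the EE arrays, against 8.86 on ISO 1 and 12.97 on ISO 2. Hsp26, Hsp27, stv and DnaJ-1, chaperones and cochaperones, were likewise highest on ISO 2. The mean over the 7 measured heat shock genes was 10.60 and 10.17 on the EE arrays, against 10.10 on ISO 1 and 12.31 on ISO 2. None of the 7 passed the unadjusted threshold, and their median difference was -0.91 with all arrays, 0.32 without ISO 2 and -1.87 without ISO 1, where 5 of the 7 were lower. Mtk, an antimicrobial peptide, was also highest on ISO 2, with 7.50 and 7.26 on the EE arrays against 6.82 on ISO 1 and 11.03 on ISO 2.

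Markers of the labelled cell type were checked first. Of 16 measured Kenyon cell markers 14 were not of low signal, and 0 passed the unadjusted threshold in either direction (2 were higher without ISO 1). Their median difference was 0.01, and the mean over the list was 9.12 and 9.10 on the EE arrays against 9.21 and 8.96 on the ISO arrays. Dop1R1, a dopamine receptor needed for memory, had 9.20 and 9.11 under EE and 9.38 and 9.01 under ISO. Markers of other cells were present as well. The mean over 18 glia markers was 10.10 and 10.06 under EE and 10.04 and 10.03 under ISO, and 0 of them passed (2 were higher without ISO 2 and 1 without EE 2). The mean over 16 photoreceptor markers was 9.70 and 10.56 under EE and 9.71 and 10.30 under ISO, so here the second array of each housing was the higher one. None of these passed with all arrays, and 3 were higher without EE 1 and 1 without ISO 2. The plot of marker levels by array shows these lists side by side.

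After adjustment 15 probe sets rose under EE (0.0799% of those tested) and 2 fell (0.0107%). Of the 15, 13 had a gene symbol, 2 had none, and 5 were of low signal. Both probe sets that fell belong to timeless. Without adjustment 446 were higher (2.38%) and 381 lower (2.03%), but the directions differed in signal. Of the 446, 297 were not of low signal, against 91 of the 381. Over all probe sets the median difference was -0.02, and it was -0.06 for those of low signal. The plot of difference against signal shows the called probe sets spread over the range of signal and most of the lower ones at its dim end. Counted once per gene, with the brightest probe set for each of 11982 genes, 13 genes rose (0.108%) and 1 fell (0.00835%), and 374 were higher (3.12%) and 169 lower (1.41%) at the unadjusted threshold.

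**Figure D1:**
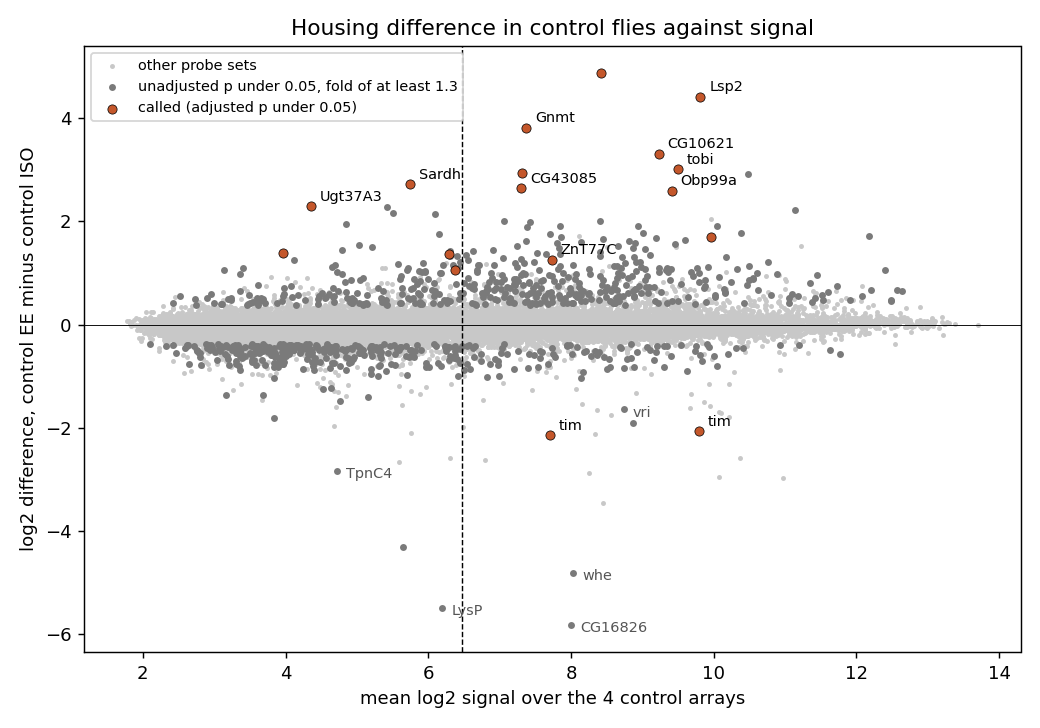
Log2 difference, control EE minus control ISO, of every probe set against its mean log2 signal over the 4 control arrays. The dashed line is the median mean signal of 6.47. Orange points are the 15 probe sets that rose and the 2 that fell after adjustment, and dark grey points passed only the unadjusted threshold.

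The adjusted calls depended on single arrays, since each group had 2. The limma fit called 2 probe sets without EE 1, 0 without EE 2 (449 higher and 303 lower at the unadjusted threshold), 13 without ISO 1 and 139 without ISO 2. These were not all the same probe sets as the calls with all arrays. Without ISO 1 some of those calls were lost and others were gained. Lsp2 and Obp99a were among the lost, with differences of 4.37 and 2.77 in that fit. The methods' t-test on the control arrays alone gave 0 calls after adjustment, and 107 higher and 86 lower without it. Averaging the closely matching dTip60E431Q ISO arrays, 1 of which is labelled as 6 days old, into 1 sample left 2 higher and 1 lower. No called gene changed its direction under any of these settings. At the unadjusted threshold the number of probe sets over the whole array rose in both directions without ISO 2. Counts for single gene lists from a fit without 1 array were not set against the share of all genes in that fit. Of the 297 higher probe sets that were not of low signal, 250 had ISO 1 below ISO 2, against 38.1% of all such probe sets, so ISO 1 was on most of them the array farthest from EE.

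Among called genes with a symbol the largest difference belonged to a fat body gene. Lsp2, a hexamerin that stores amino acids, on chromosome arm 3L, had 12.02 and 12.02 under EE against 7.56 and 7.65 under ISO. It rose by 4.42 (SE 0.36, adjusted p = 0.0168), about 21.4-fold, and the groups lay far apart with little spread in either. The yolk protein genes moved unequally. Yp3 had 13.16 and 12.93 under EE against 11.15 and 11.49 under ISO, a difference of 1.72 (adjusted p = 0.184). Yp2 differed by 1.05, with 12.97 and 12.87 under EE against 11.84 and 11.90 under ISO, whereas Yp1 differed by 0.14, with 13.32 and 13.23 against 13.15 and 13.11. Yp2 and Yp3 kept EE above ISO on every array but passed only without adjustment, and Yp1 did not pass. Housing cannot be told apart here from mating or from a difference in sex ratio.

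The gene fit, a female-enriched secreted peptide of the fat body that signals protein feeding, had 11.97 and 11.91 under EE and 8.20 and 9.85 under ISO. Its difference was 2.91 (adjusted p = 0.177), and ISO 1 lay below ISO 2, with both under the EE arrays. The lipoprotein gene apolpp, which carries lipids in the blood, differed by 0.47, its partner Apoltp by 0.76, and the fatty acid synthase FASN1 by 0.46. Of 17 measured fat body markers, 9 were higher at the unadjusted threshold and 0 lower, with a median difference of 0.46, against 3.12% higher and a median of 0.01 over all genes. NLaz, a lipocalin, went the other way without passing, with 8.41 and 8.45 under EE against 9.08 and 9.45 under ISO. The mean over the list was 10.16 and 10.11 on the EE arrays and 9.00 and 9.31 on the ISO arrays. The number of members higher was 5 without EE 1 and 12 without ISO 2. Yp1, Yp2 and apolpp were among the bright genes on every array of both housings.

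Enzymes that move methyl and 1-carbon groups between glycine, sarcosine, folate and methionine were higher under EE as a group. Gnmt makes sarcosine from glycine with S-adenosylmethionine as methyl donor, and Sardh turns sarcosine back into glycine. Gnmt had 9.02 and 9.53 under EE against 5.52 and 5.40 under ISO, where it was of low signal. It rose by 3.82 (SE 0.23, adjusted p = 0.00575), about 14.1-fold. Sardh rose by 2.72 (adjusted p = 0.0271), with 7.40 and 6.81 under EE against 4.13 and 4.66 under ISO, and its mean was of low signal. CG10621, a predicted homocysteine methyltransferase that would return homocysteine to methionine, had 11.02 and 10.75 under EE and 7.26 and 7.89 under ISO, and rose by 3.31 (adjusted p = 0.0438).

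The folate enzymes that supply this cycle were higher without passing adjustment. Shmt, which exchanges serine and glycine, had 9.97 and 9.90 under EE against 8.52 and 9.19 under ISO. The folate enzyme pug had 9.60 and 9.63 under EE against 7.71 and 8.54 under ISO. CG7560, a predicted methylenetetrahydrofolate reductase, differed by 1.57, the predicted glycine cleavage genes CG3999 and CG6415 by 1.43 and 1.19, Nmdmc by 0.68 and Ahcy, which clears S-adenosylhomocysteine, by 0.64. Tdh, a predicted threonine dehydrogenase, had the steadiest arrays among these, with 8.27 and 8.07 under EE against 7.25 and 7.17 under ISO (difference 0.95, adjusted p = 0.0966). In all, 11 of 18 measured members were higher at the unadjusted threshold and 0 lower, against 3.12% and 1.41% of all genes, and the median difference was 0.82. The called genes Gnmt, Sardh and CG10621 are among the 11, and the list was chosen with earlier results of these data known. Leaving out each control array in turn gave medians between 0.62 and 0.95.

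Several other members of the list lay near 0. Sam-S, which makes S-adenosylmethionine, differed by 0.22, Bhmt by 0.03, and the transsulfuration genes Cbs and Cth by -0.15 and 0.08, none of them past the threshold. On 16 of the 18 genes ISO 1 was below ISO 2. The fat body list, which also holds Gnmt, was higher on the same arrays, by the means given above, and its part in these differences was not tested.

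**Figure D2:**
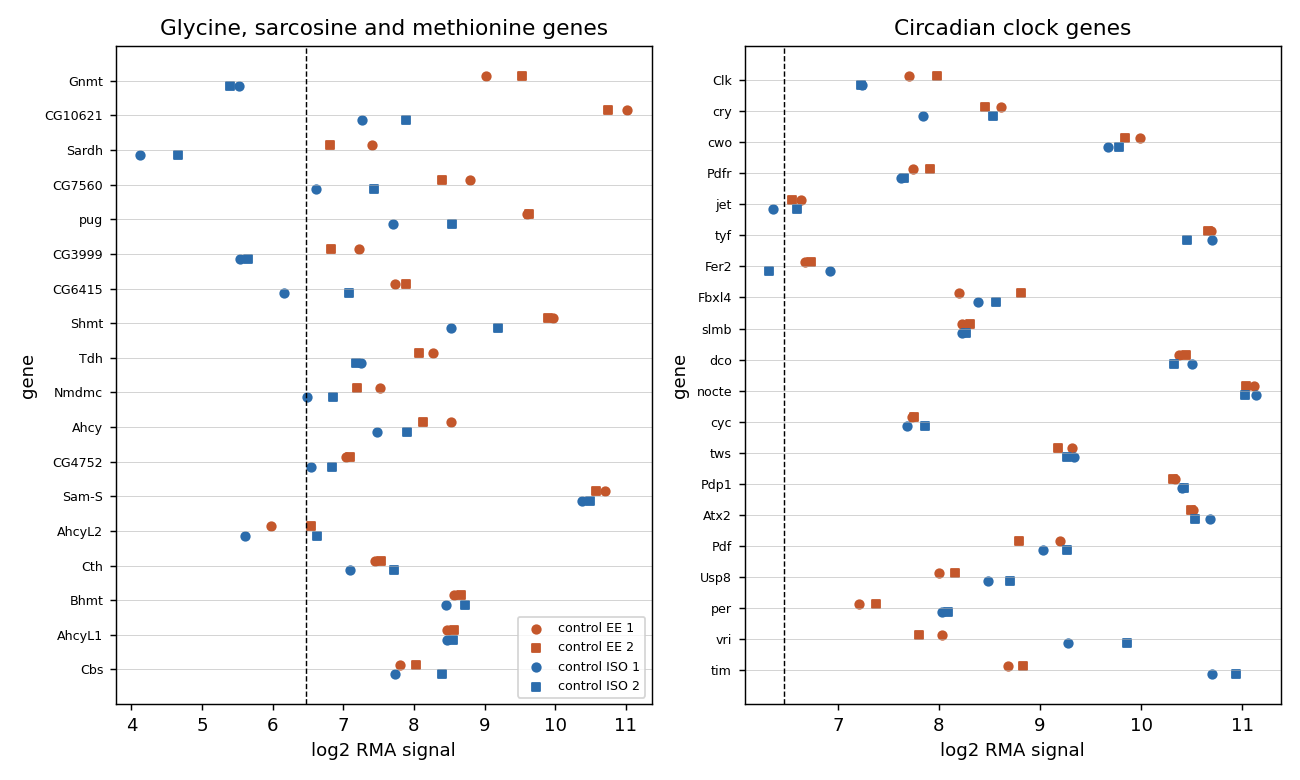
Log2 signal of each measured gene of the glycine, sarcosine and methionine list (left) and of the circadian clock list (right) on the EE arrays (orange) and ISO arrays (blue), ordered by difference. The dashed line is the median mean signal of 6.47. Gnmt, CG10621 and Sardh lead the left panel, and tim, vri and per lie to the left under EE in the right panel.

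The clock gene timeless (tim) gave the only decreases that passed adjustment. TIM protein pairs with PERIOD and holds down CLOCK, the activator of their own genes, so that tim, per and vri mRNA are made in the same part of the day and Clk mRNA in the opposite part. The brighter probe set of tim, on chromosome arm 2L, had 8.68 and 8.83 under EE against 10.70 and 10.94 under ISO. It fell by 2.06 (SE 0.12, adjusted p = 0.00575), and the other tim probe set fell by 2.15 (SE 0.15, adjusted p = 0.011), with 6.54 and 6.71 under EE against 8.59 and 8.96 under ISO. The arrays of a housing lay close together on both probe sets.

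Other genes of the loop differed without passing adjustment. The repressor gene vri had 8.03 and 7.80 under EE against 9.27 and 9.86 under ISO (difference -1.65, adjusted p = 0.157). The period gene, per, had 7.21 and 7.38 under EE against 8.03 and 8.09 under ISO (difference -0.77, adjusted p = 0.116). Clk, which is made in the opposite phase, had 7.71 and 7.98 under EE against 7.24 and 7.23 under ISO (difference 0.61, adjusted p = 0.425). Usp8, a deubiquitinase that acts on CLOCK, differed by -0.51. These 5 of 20 measured clock genes passed the unadjusted threshold, 4 lower and 1 higher, against 1.41% and 3.12% of all genes, and the median of the list was -0.00. The same numbers, 4 lower and 1 higher, were found without EE 1, without EE 2 and without ISO 1, and without ISO 2 there were 4 lower and 2 higher.

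Pdp1, which cycles with vri, had 10.33 and 10.31 under EE and 10.41 and 10.43 under ISO, and cwo, cry, cyc and the neuropeptide gene Pdf did not pass. Flies were kept in a light and dark cycle, and the sources used here do not give the hour of collection. Housing and any difference in that hour cannot be told apart.

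Of 17 insulin pathway genes, 3 were higher at the unadjusted threshold and 0 lower, against 3.12% and 1.41% of all genes. The alpha-glucosidase tobi, a target of both insulin-like peptides and adipokinetic hormone, had 10.98 and 11.02 under EE against 7.49 and 8.49 under ISO, and rose by 3.01 (SE 0.32, adjusted p = 0.0418). Ilp5, an insulin-like peptide of neurosecretory cells in the pars intercerebralis, had 11.72 and 11.00 under EE and 10.16 and 10.14 under ISO (difference 1.21, adjusted p = 0.539). Lst, a decretin that restrains insulin release, had 9.27 and 9.28 under EE and 6.93 and 8.29 under ISO. Only tobi passed adjustment, and on tobi and Lst ISO 1 was the lowest array. Among 26 genes of sugar and glycogen metabolism 2 were higher (7.69%) and 1 lower (3.85%), against 3.12% and 1.41% of all genes. Of these fbp, an enzyme of gluconeogenesis, was higher with tobi, at 9.87 and 9.91 under EE against 8.44 and 9.14 under ISO, and the maltase Mal-B1 was lower, at 6.92 and 7.04 against 7.60 and 8.05. Without ISO 2 the list had 4 higher and 0 lower, and without EE 2 it had 5 higher. Of 23 lipid genes 6 were higher and 0 lower (3.12% and 1.41% over all genes), with a median of 0.25, among them ACC, the first enzyme of fatty acid synthesis, with a difference of 0.51. Several of them, such as FASN1 and apolpp, are also fat body markers. The lipid count was 0 without EE 1, 2 without ISO 1 and 11 without ISO 2.

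Blood cell genes were higher in small steps. Of 17 hemocyte markers 10 were higher at the unadjusted threshold and 0 lower, against 3.12% and 1.41% of all genes, and the median difference was 0.60. NimC1, a phagocytosis receptor, had 7.71 and 7.27 under EE against 6.80 and 6.77 under ISO. Glt, a secreted glycoprotein, had 11.92 and 11.94 against 10.83 and 11.10, and PPO1, a prophenoloxidase of crystal cells, had 8.61 and 7.98 against 7.41 and 7.50. None passed adjustment. Hml, a defining hemocyte marker, had 9.24 and 8.40 under EE and 8.02 and 8.28 under ISO, and did not pass. The collagen genes Col4a1 and vkg, which other cells also express, differed by 0.10 and 0.03, and Pxn by 0.01. The mean of the list was 7.98 and 7.71 under EE against 7.27 and 7.44 under ISO, and the number higher was 4 without EE 1 and 6 without ISO 1. The fat body and hemocyte lists were higher on both EE arrays than on both ISO arrays, and their part in the differences of single genes such as tobi, Obp99a and Ugt37A3 was not tested.

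Obp99a, an odorant-binding protein gene on chromosome arm 3R, had 10.85 and 10.57 under EE against 8.29 and 7.93 under ISO, and rose by 2.59 (SE 0.27, adjusted p = 0.0399). It was the only called member of its family. Of 47 odorant-binding protein genes 4 were higher at the unadjusted threshold and 0 lower, against 3.12% and 1.41% of all genes, and the median difference was 0.09. The medians of the leave-one-out fits ran from -0.09 to 0.25. Obp56h had 8.28 and 8.37 under EE but 5.31 on ISO 1 and 7.56 on ISO 2, so ISO 1 stood far below the other arrays (difference 1.89, adjusted p = 0.81). Obp83cd and Obp83ef, both of low signal, differed by 1.16 and 0.79.

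Among detoxifying enzymes 1 gene passed adjustment. Ugt37A3, a UDP-glycosyltransferase of low signal, had 5.13 and 5.88 under EE against 3.12 and 3.30 under ISO, and rose by 2.30 (adjusted p = 0.0399). Of 35 UDP-glycosyltransferase genes 7 were higher and 1 lower at the unadjusted threshold (4 higher without ISO 1, 3 lower without ISO 2), against 3.12% and 1.41% of all genes, with Ugt302E1 next at 1.09 (adjusted p = 0.0775) and Ugt49B1, a bright member, at 0.73. Of 83 cytochrome P450 genes, 31 of them of low signal, 12 were higher and 0 lower, with a median of 0.15. Fewer were higher without EE 1, EE 2 or ISO 1, and more without ISO 2. Cyp309a1, of low signal, had 6.82 and 7.50 under EE and 4.69 and 5.36 under ISO, and Cyp6w1 had 10.20 and 10.21 against 9.14 and 9.61. None of the P450 genes passed adjustment, and their median was 0.04 without ISO 1, 0.10 without EE 2 and 0.30 without ISO 2. Of 34 glutathione S-transferase genes 1 was higher, a share near that of all genes. The median of this list was 0.08 with all arrays, -0.15 without ISO 1 and 0.26 without ISO 2.

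The list of juvenile hormone and ecdysone genes had a median of -0.02. Kr-h1, the transcription factor that juvenile hormone induces, had 9.96 and 9.78 under EE against 8.85 and 8.84 under ISO, a difference of 1.03 (SE 0.12, adjusted p = 0.0648). The hormone's synthetic enzyme jhamt had 9.91 and 8.90 under EE, against 6.23 on ISO 1 and 8.56 on ISO 2 (difference 2.01, adjusted p = 0.726). ImpE1, an ecdysone-induced gene, was lower at 7.31 and 7.05 against 8.13 and 7.42. In all, 4 of 28 were higher and 1 lower at the unadjusted threshold, against 3.12% and 1.41% of all genes. Fewer were higher without EE 1, EE 2 or ISO 1, and more were lower without ISO 2. The median of the list was 0.02 without ISO 1 and -0.10 without ISO 2.

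ZnT77C, a zinc transporter gene, had 8.41 and 8.31 under EE against 7.08 and 7.13 under ISO, and rose by 1.25 (adjusted p = 0.015). Among the metallothioneins, which bind zinc and copper, MtnD had 7.06 and 7.48 under EE against 6.18 and 6.04 under ISO (difference 1.16, adjusted p = 0.103), while the brightest, MtnA, differed by -0.08. The remaining called genes have CG numbers. CG43085 had 8.56 and 8.68 under EE against 5.97 and 5.98 under ISO, with little spread in either group, and rose by 2.64 (adjusted p = 0.00575). CG11741 rose by 2.94, with 9.02 and 8.54 under EE against 5.42 and 6.26 under ISO. CG7763, CG4259 and CG1544, all of low signal, rose by 1.38, 1.37 and 1.06. The called probe set with the largest difference, 4.86, had no gene symbol, with 10.84 and 10.86 under EE against 5.76 and 6.20 under ISO. The plot of called probe sets shows that on each of the 17 the EE arrays and the ISO arrays did not overlap, and over all probe sets EE lay wholly above ISO for 14.9% and wholly below for 16.9%.

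**Figure D3:**
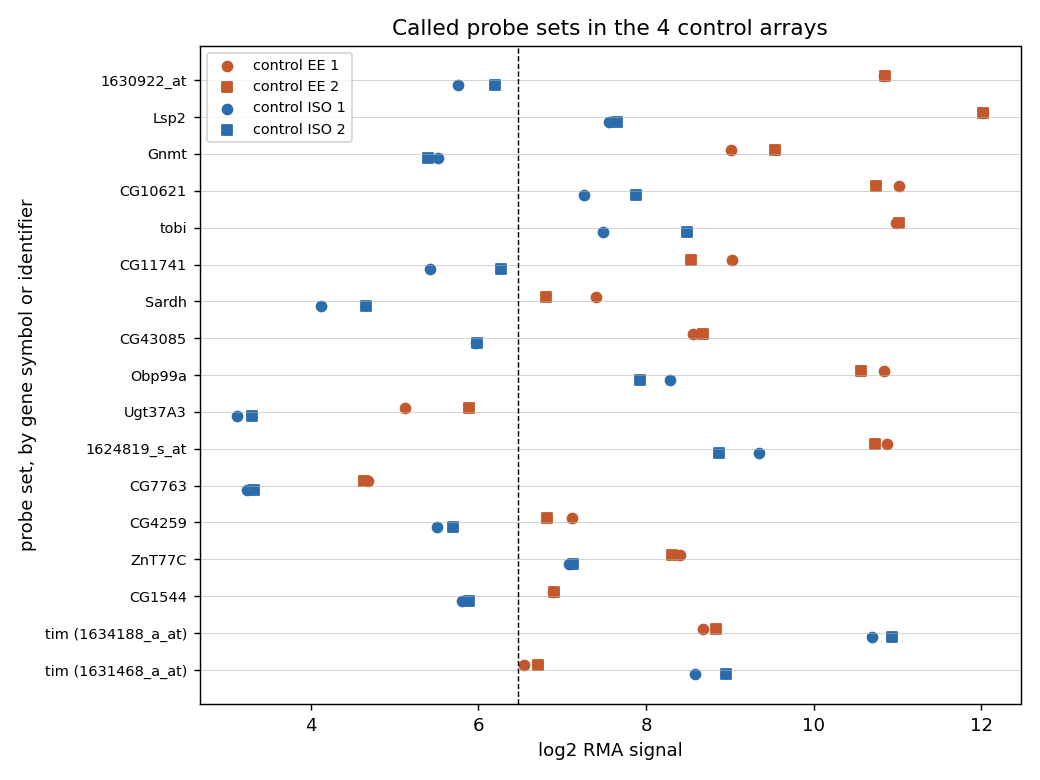
Log2 signal of the 17 called probe sets on the EE arrays (orange) and ISO arrays (blue), with circles for the first and squares for the second array. Rows are gene symbols, with probe set identifiers for tim and for the probe sets without a symbol, and the dashed line is the median mean signal of 6.47. Of the 15 that rose, Ugt37A3 and CG7763 stay left of the line on all arrays.

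The largest decreases by size did not pass adjustment, and the same genes varied widely within dTip60E431Q flies, which share the estimate of spread. CG16826 had 4.53 and 5.67 under EE against 10.44 and 11.39 under ISO (difference -5.81, SE 2.05, adjusted p = 0.747). In dTip60E431Q it had 4.96 and 12.45 on the EE arrays and 11.80 and 11.76 on the ISO arrays. The gene whe had 5.15 and 6.11 under EE against 9.51 and 11.37 under ISO, and LysP, a lysozyme gene marked as low signal, had 3.13 and 3.77 against 8.82 and 9.07. In dTip60E431Q LysP had 3.90 and 9.89 under EE and 8.84 and 8.82 under ISO, so EE 1 of that genotype also stood low while its EE 2 stood high. TpnC4, a troponin C of flight muscle and of low signal, had 3.06 and 3.56 under EE against 6.10 and 6.19 under ISO. It was the only 1 of 20 muscle markers past the unadjusted threshold, a share of 5.0% lower against 1.41% of all genes. Over those markers the median difference was -0.14, with 19 of 20 below 0, while 51.6% of all genes lay above 0. Leaving out each control array in turn gave medians between -0.28 and -0.02.

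Further genes lower at the unadjusted threshold and not of low signal were Cpr11B, a cuticle protein gene, and Drs, an antifungal peptide gene. Cpr11B had 7.80 and 8.02 under EE against 9.57 and 10.05 under ISO (difference -1.90, adjusted p = 0.279). Drs had 8.29 and 8.09 against 8.95 and 8.79. Of 14 immune effector genes Drs and LysP were the only members past the unadjusted threshold, a share of 14.3% lower against 1.41% of all genes. The median of the list was -0.03 with all arrays, -0.15 without ISO 1 and 0.24 without ISO 2. Among the 22 male germ line genes, 21 of them of low signal, 2 were lower and 1 higher, against 1.41% and 3.12% of all genes. Their mean was 3.97 and 3.99 under EE, against 4.72 on ISO 1 and 4.01 on ISO 2. Their median difference was -0.26 with all arrays, -0.07 without ISO 1 and -0.53 without ISO 2. Mst84Dc, a sperm protein gene, had 4.84 and 4.88 under EE against 7.67 on ISO 1 and 5.16 on ISO 2. Of 16 ovary and chorion genes, 15 of low signal, 0 passed the unadjusted threshold, with a median of 0.19 and 14 above 0. Of 14 male accessory gland genes, 13 of low signal, 0 passed, with a median of -0.16 and 12 below 0. Of 5 dosage compensation genes 0 passed, with a median of -0.03. The nuclear-encoded oxidative phosphorylation list had 3 of 72 lower and 0 higher, against 1.41% and 3.12% of all genes, all 3 of low signal (SdhCL, COX6CL and COX5BL). Without ISO 2 there were 8 lower and without EE 1 there were 0.

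Few of the genes that neurons use passed the unadjusted threshold. Of 31 neuropeptide and peptide hormone genes 3 were higher (Akh, Ilp5 and Nplp2) and 0 lower, with a median of 0.05. The shares over all genes were 3.12% and 1.41%. Akh, a gene of an endocrine gland behind the brain, had 11.05 and 10.97 under EE against 7.80 on ISO 1 and 10.38 on ISO 2. Leaving out each control array in turn gave medians of the list between -0.02 and 0.16. Of 28 synaptic vesicle and active zone genes and 39 ion channel and receptor genes, 0 passed the unadjusted threshold in either direction, with medians of -0.04 and -0.11. Without ISO 2, 3 of each list were lower and the medians were -0.17 and -0.29, and without ISO 1 the medians were 0.05 and 0.03. The active zone gene brp had 11.30 and 11.42 under EE against 11.57 and 11.30 under ISO, and Appl, the fly homolog of the amyloid precursor protein, had 12.09 and 12.01 against 12.21 and 12.03. The 14 genes known to respond to neuronal activity also gave 0 (1 higher without ISO 2), with Hr38 at 7.08 and 7.03 under EE against 7.43 and 7.16 under ISO and Arc1 at 11.50 and 11.17 against 11.11 and 11.67. Of 25 learning and memory genes, the higher one was the serine protease gene teq (10.47 and 10.10 against 9.64 and 9.86), and the lower one was per. Each was a share of 4.0%, against 3.12% higher and 1.41% lower over all genes. Without ISO 1 there were 0 higher and 2 lower. A p that misses the threshold with 2 arrays does not show that these genes were equal.

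Of 30 genes for neuron development and wiring 1 was higher, near the share of 3.12% over all genes. It was fru, the sex determination factor that shapes courtship circuits, with 9.07 and 9.23 under EE against 8.69 and 8.54 under ISO (difference 0.53, adjusted p = 0.566). All 7 of its probe sets differed in the same direction. The study measured fru by RT-qPCR in RNA of fly heads, along with Obp99a, Pka-R1, mbm, jing and p. It picked these genes as responsive to EE from its own analysis of these arrays, and reports them as upregulated under EE. Pka-R1, a regulatory subunit of protein kinase A, had 10.05 and 10.08 under EE against 9.86 and 9.81 under ISO (difference 0.23, adjusted p = 0.839), while a dimmer Pka-R1 probe set had 6.71 and 6.68 against 7.01 and 6.52 (difference -0.07). The zinc finger gene mbm, needed for mushroom body growth and of low signal, had 6.46 and 6.48 against 6.19 and 6.18. The transcription factor gene jing differed by 0.14 and p, the gene named pink, by 0.20. Only Obp99a passed adjustment and only Obp99a and fru the unadjusted threshold.

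**Figure D4:**
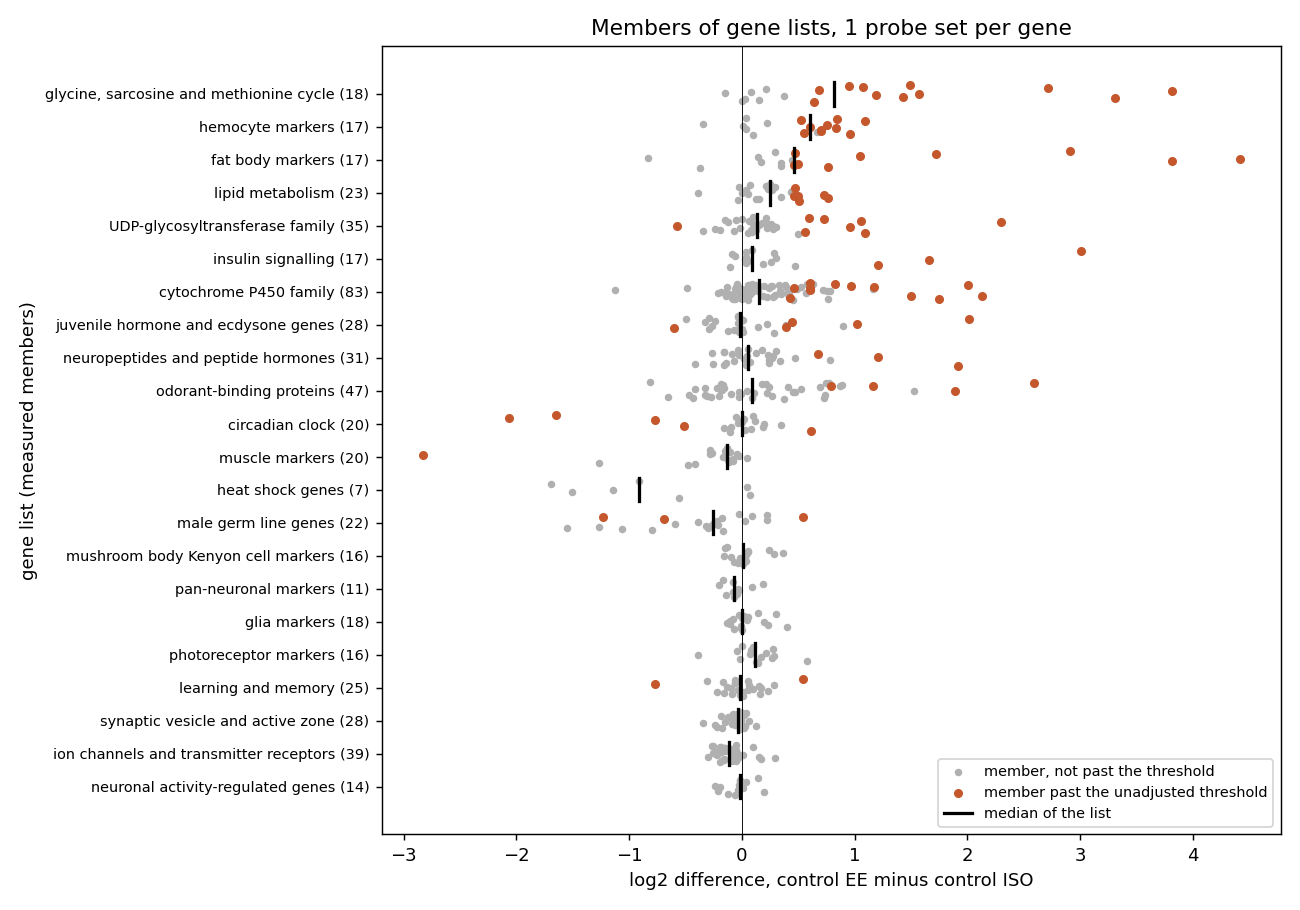
Log2 difference, control EE minus control ISO, of each measured member of 22 gene lists, with orange for members past the unadjusted threshold, grey for the others and a black bar for the median of the list. The number of measured members stands beside each name. Metabolic and blood cell lists extend to the right, and clock, heat shock and male germ line lists to the left. The Kenyon cell, pan-neuronal, synaptic, ion channel and activity-regulated lists stay near 0, as does learning and memory apart from per and teq. The list of neuropeptides and peptide hormones reaches 1.92, for Akh.

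The called genes behaved differently in dTip60E431Q flies, whose arrays entered the spread of the test but not the difference that chose the genes. There EE minus ISO was below 0 for 14 of the 15 probe sets that rose in control flies, with a median of -2.46, and 11 of them were called lower, against 0.405% of all probe sets. Lsp2, for example, differed by -3.04, Gnmt by -3.14 and CG43085 by -1.89. The brighter tim probe set differed by 0.23. The interaction of genotype and housing passed an adjusted p under 0.05 for all 17 called probe sets, against 0.671% of those tested, and this test shares with the calls the control difference by which they were chosen.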

How the data were processed

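RNA of sorted GFP-positive cells was hybridised to 8 Affymetrix Drosophila arrays, 2 for each of 4 groups assigned by the sample titles. The authors deposited log2 values made with RMA (background correction, quantile normalization, summary per probe set), of a version that the sources used here do not give. Values were used as deposited. The array medians lay between 6.41 and 6.50. Probe sets with 1 symbol numbered 13647, with several 402 and with none 4720, and no gene was named from those with several.

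Differences were fitted in R 4.3.3 with limma 3.58.1 (lmFit, eBayes), with 1 mean per group over all 8 arrays (4 residual and 2.91 prior degrees of freedom) and Benjamini-Hochberg adjustment over 18769 probe sets. The methods state a t-test, which was run as an alternative. The steps were tested on simulated data. Lists, members and named genes were chosen with earlier results of these data known. Named were all calls with 1 symbol, the 12 largest differences in each direction past the unadjusted threshold, not of low signal and not overlapping, the 6 genes of the RT-qPCR, and up to 4 members of each list by p. Some CG-numbered genes of unknown function were not named, and values of other members are descriptive. Alternatives were array weights, median centring, cyclic loess, low signal left out, 1 probe set or a mean per gene, a trend with robust moderation, the control arrays alone, a replicate block, a fold of 1.1 and leave-one-out fits. Precision is limited by the number of arrays. No sequence is shown.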

Additional observations from a re-analysis of the deposited data

Results flagged for a closer look

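For 14 genes the EE minus ISO difference in control flies differed from that in dTip60E431Q flies by a test of the interaction (limma, adjusted p under 0.05, n = 2 arrays per group). The genes are those called in control flies, so the control difference enters both choices, and no explanation was weighed. The interaction, control minus dTip60E431Q, was 7.45 for Lsp2, 6.95 for Gnmt, 6.38 for Obp99a, 6.17 for CG11741, 6.05 for tobi and 5.76 for CG10621. It was 5.17 for Sardh, 4.77 for Ugt37A3, 4.53 for CG43085 and 3.41 for CG7763. The smaller ones were 1.96 for CG1544, 1.71 for ZnT77C and 1.58 for CG4259. For tim it was -2.30.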

How the results depend on the processing

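Of 3114 values of named genes over the alternatives, 2927 kept their direction and their side of the adjusted threshold, 129 lost the call, 35 gained it and 23 changed sign. Most named genes were not called, and such a gene counted as kept where it stayed uncalled, also in settings with 0 calls. Only called genes could lose a call, so the 2927 is no measure of how stable the calls were. The sign changes fell in 17 genes, 0 of them past the unadjusted threshold with all arrays. Leaving out 1 array gave -0.054 to 0.33 for jing, -0.26 to 0.00018 for trio, -0.061 to 0.86 for Indy, -0.23 to 0.055 for mof, -0.058 to 0.23 for mle, -0.11 to 0.043 for msl-3, -0.089 to 0.025 for msl-2 and -0.028 to 2.10 for PGRP-SB1. It gave -0.16 to 0.012 for MtnA, -0.22 to 0.23 for Prat, -0.017 to 0.063 for ras, -0.17 to 0.32 for Aldh-III, -0.045 to 0.18 for Gdh, -0.17 to 1.03 for hgo, -0.26 to 0.90 for Faa, -0.16 to 0.033 for CG7430 and -0.060 to 0.017 for slgA. The mean of the probe sets of msl-3 was 0.0031, and Prat was -0.0012 with arrays centred on their medians. Of 245 list medians, 217 stayed within the replicate spread and 33 changed sign. That spread came from the same control arrays, and leaving out 1 of them cannot move the mean of a list beyond it. The 217 is therefore no measure of how stable the lists were. The counts moved far more. Against 15 called higher and 2 lower, cyclic loess gave 9 and 2, only the 4 control arrays gave 3 and 1, the methods' t-test gave 0 and 0, and the dTip60E431Q ISO arrays averaged as 1 sample, an alternative chosen after seeing the data, gave 2 and 1. With 1 probe set per gene or the mean of a gene's probe sets the number lower was 1, since tim then counts once. Leaving out 1 array gave 0 (without EE 2) to 65 (without ISO 2) higher and 0 (without EE 1 or EE 2) to 74 (without ISO 2) lower. Without either dTip60E431Q ISO array the calls were 2 and 1, and without either dTip60E431Q EE array 18 and 8.

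At the unadjusted threshold, against 446 higher and 381 lower, leaving out low signal gave 293 and 91, or 297 and 90 with low signal set over 8 arrays. The number lower was 158 with 1 probe set per gene and 155 with their mean. These settings test fewer features. The methods' t-test gave 107 and 86. Leaving out 1 array gave 377 (without a dTip60E431Q ISO array) to 1032 (without ISO 2) higher and 303 (without EE 2) to 1825 (without ISO 2) lower. Where not named, the cause was not tested.

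The replicate numbers did not pair the arrays by the labels: deviations of same-numbered EE and ISO arrays correlated at 0.31 over probe sets in control flies, and the other pairs of groups at -0.09 to 0.26. With the replicate block 7 probe sets were called higher and 2 lower. With 2 arrays per group a lone array is assumed to vary like the others, and a gene of low signal has no detection call behind it.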

Other observations

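Purine synthesis genes were listed after their values had been seen. Gart, a multifunctional enzyme of purine synthesis that uses a folate cofactor, had 9.80 and 9.98 under EE against 7.83 and 8.41 under ISO (difference 1.77, adjusted p = 0.388 from limma). Pfas had 8.48 and 8.20 against 6.61 and 7.33, and Paics had 11.04 and 10.64 against 8.88 on ISO 1 and 10.17 on ISO 2. Of 9 measured genes 4 were higher at the unadjusted threshold and 0 lower, against 3.12% and 1.41% of all genes, and all 9 had ISO 1 below ISO 2. The others included Adss, bur, ras and Prat, with differences of 0.18, 0.12, 0.02 and 0.00. The number higher was 2 without EE 1 and 2 without ISO 1. The median difference was 0.73 with all arrays and 0.32 without ISO 1.

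Further lists chosen in the same way held genes of the corpora cardiaca and allata, the endocrine glands behind the brain, and genes of amino acid breakdown. Of 8 gland genes 5 were higher and 0 lower, against the same shares of all genes. Akh, the adipokinetic hormone that releases stored energy, had 11.05 and 10.97 under EE against 7.80 on ISO 1 and 10.38 on ISO 2 (difference 1.92, adjusted p = 0.78). On 7 of the 8 genes ISO 1 was below ISO 2, and the count was 2 without ISO 1 and 0 without EE 1. Bcat, a branched-chain aminotransferase, had 11.58 and 10.95 under EE against 9.13 and 9.86 under ISO (difference 1.77, adjusted p = 0.307), and 4 of 13 breakdown genes were higher and 0 lower, again against 3.12% and 1.41%. These lists get no test, since they were chosen for their values, and no other list was tested either.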
